A study of Bos taurus with 6 samples.

Results

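The endoplasmic reticulum (ER) folding chaperones described here are 10 genes: HSPA5, HYOU1, DNAJB11, HSP90B1, PDIA3, PDIA4, PDIA6, CALR, CANX and MANF. They were selected by symbol among 13185 gene symbols with usable values in all 6 libraries, and the set was chosen from earlier results in which several of them were higher after treatment. Their control against treated values are therefore a description, without a test. The libraries were made from polyA RNA of single bovine morulae at day 6, 144 h after insemination, produced by in vitro fertilization and cultured in mSOF medium with bovine serum albumin under 5% oxygen. At 72 h (day 3), when they had 8 to 16 cells, embryos were given either 0.1% DMSO (Control) or 20 µM FIDAS-5 (MAT2A-inhibited), and each group holds 3 embryos. FIDAS-5 inhibits MAT2A, the enzyme that makes S-adenosylmethionine. No DMSO content is labelled for the inhibitor group, and the labels do not say whether embryos of a group came from separate cultures. If the embryos of a group shared a culture, their spread leaves out differences between cultures, and culture and treatment cannot be told apart. The spread between embryos may also be partly technical.

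Proteins that enter the secretory pathway fold in the ER lumen. HSPA5 (BiP), an Hsp70, binds unfolded chains with its J-protein DNAJB11 and the exchange factor HYOU1, and HSP90B1 (GRP94) acts on a narrower set of clients. Protein disulfide isomerases such as PDIA3, PDIA4 and PDIA6 form and rearrange disulfide bonds, while calreticulin (CALR) and calnexin (CANX) hold glycoproteins through their sugars and work with PDIA3. MANF is a small secreted and ER-resident protein that binds HSPA5. When unfolded proteins accumulate, the sensors ATF6, IRE1 (ERN1) and PERK (EIF2AK3) raise the transcription of many of these genes, a programme called the unfolded protein response.

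Depth was 46.5 M to 60.0 M fragments per library. The embryo genes POU5F1, DPPA3, TFAP2C and SOX2 were at 27.6 FPKM or more in all 6 libraries, whereas NANOG was at 1.16 to 20.3 FPKM. FPKM is fragments per kilobase of transcript per fixed number of mapped fragments, a level per length. Y-linked DDX3Y and EIF1AY were present only in MAT2A-inhibited morulae 2 and 3, the summed Y-linked level being 58.2 and 118.2 FPKM there and at most 0.193 FPKM in the other 4 libraries. Those 2 libraries, called Y-positive below, are both treated, so Y-linked expression and treatment are partly confounded, and their part in the chaperone values was not tested. Values without them are given for each chaperone. Trophectoderm markers varied most within controls, from 103.5 to 1022 FPKM summed over 8 genes, against 184.4 to 491.5 in treated embryos, with KRT8, KRT18, GATA3, GATA2, KRT7 and DAB2 reaching 10 FPKM and CDX2 at most 2.77. In bulk RNA of an embryo, a change in the share of a cell type and a change in RNA per cell cannot be told apart.

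In control morulae the chaperones spanned a wide range of levels. MANF was the most abundant, at 383.1 ± 25.9 FPKM (SD, n = 3), and ranked 436th of the 7319 tested genes. CALR followed at 145.3 ± 51.3, PDIA6 at 119.3 ± 19.8, PDIA3 at 93.4 ± 5.41, CANX at 88.1 ± 17.7 and HSPA5 at 72.5 ± 15.3 FPKM. HSP90B1 was at 46.7 ± 6.33 and DNAJB11 at 30.5 ± 5.99 FPKM, and the least abundant were HYOU1 at 3.08 ± 0.752 and PDIA4 at 2.46 ± 0.813 FPKM. Control ranges were apart between MANF and CALR, PDIA6 and PDIA3, HSPA5 and HSP90B1, HSP90B1 and DNAJB11, and DNAJB11 and HYOU1. The neighbours CALR and PDIA6, PDIA3 and CANX, CANX and HSPA5, and HYOU1 and PDIA4 overlapped and were in the stated order in 2 of 3 control embryos. All 10 were at 1 FPKM or more in all 6 libraries, so none entered the test through one group alone.

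**Figure D1:**
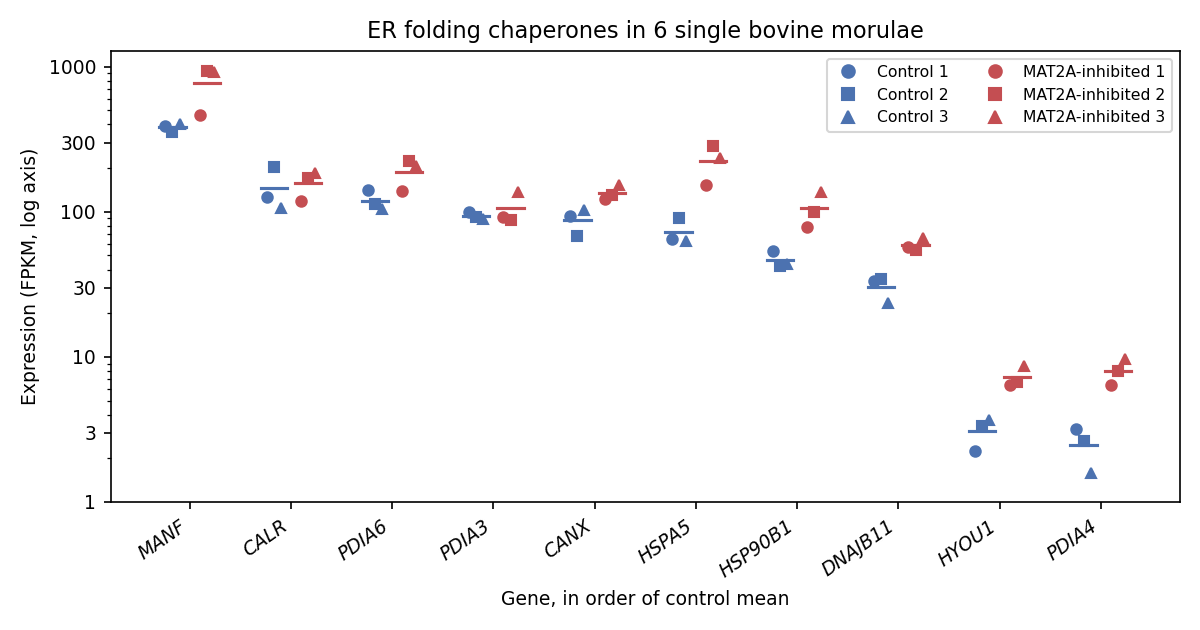
Expression (FPKM, log axis) of each chaperone gene in the 6 single morulae, in order of control mean; blue marks are Control embryos, red marks MAT2A-inhibited embryos, marker shape gives the replicate number and horizontal lines are group means (n = 3). HSPA5, at 62.8 to 90.2 FPKM in controls, lies at 152.5 to 283.4 FPKM in treated embryos, while the PDIA3 and CALR marks of both groups intermix.

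The Hsp70 machinery was higher in every MAT2A-inhibited morula. HSPA5 (bosTau8 chromosome 11, 96115225 to 96119266) measured 64.6, 90.2 and 62.8 FPKM in control embryos 1 to 3. In treated embryos 1 to 3 it measured 152.5, 283.4 and 233.6 FPKM. The groups did not overlap, the lowest treated value being 1.69 times the highest control. Its mean of 223.1 ± 66.1 FPKM was 3.08 times that of controls, and its fold change on the log2(FPKM + 1) scale, treated minus control, was 1.58 ± 0.28 (SE, n = 3 per group), which ranked 68th from the top of all 7319 tested genes. By level HSPA5 held place 5 or 6 among the 10 genes in each control embryo and place 2 in each treated embryo. Without the 2 Y-positive libraries its log2 fold change was 1.08.

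DNAJB11, the J-protein that stimulates the HSPA5 ATPase (chromosome 1, 81234018 to 81252216), had levels of 33.4, 34.5 and 23.6 FPKM against 57.0, 54.5 and 66.4 FPKM. HYOU1, the large Hsp70-like exchange factor (chromosome 15, 30159427 to 30171029), had levels of 2.24, 3.33 and 3.68 FPKM against 6.39, 6.71 and 8.67. For both genes all treated values lay above all controls. The log2 fold changes were 0.95 ± 0.24 and 1.02 ± 0.30 (SE), and the means were 1.94 and 2.36 times those of controls. Without the Y-positive libraries the log2 fold changes were 0.90 and 0.875. The HSPA5 to DNAJB11 level ratio was 1.93, 2.61 and 2.66 in controls and 2.67, 5.20 and 3.52 in treated embryos, and the treated coefficient of variation was 10.6% for DNAJB11 and 29.6% for HSPA5. The HSPA5 to HYOU1 ratio overlapped between groups, at 17.1 to 28.9 against 23.9 to 42.3.

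HSP90B1, the ER-resident Hsp90 (chromosome 5, 67940792 to 67959532), measured 53.9, 42.4 and 43.7 FPKM in control embryos, and 78.7, 100.2 and 137.5 FPKM after treatment. Controls lay close together, with a coefficient of variation of 13.6%, and the treated embryos were spread at 28.2%, all above them. The mean was 2.26 times that of controls and the log2 fold change was 1.13 ± 0.26 (SE). Leaving out the Y-positive libraries gave 0.75.

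Of the disulfide isomerases, PDIA4 was apart between the groups, and PDIA6 and PDIA3 overlapped. PDIA4 (chromosome 4, 112989511 to 113006466) measured 3.17, 2.62 and 1.57 FPKM in control embryos, and 6.39, 8.01 and 9.73 FPKM after treatment, with no overlap. Its mean was 3.27 times that of controls, the highest ratio of the set, and its log2 fold change was 1.40 ± 0.32 (SE). The added 1 FPKM shrinks the fold of a gene this low: with 0.1 in its place the log2 fold change was 1.70. Without the Y-positive libraries it was 1.12. PDIA6 (chromosome 11, 86834832 to 86858171) had levels of 141.6, 112.7 and 103.8 FPKM against 138.4, 222.6 and 205.7, so that treated embryo 1 lay within the control range. Its log2 fold change was 0.64 ± 0.25 (SE), and 0.22 without the Y-positive libraries. ATP6V1C2, a proton pump subunit annotated over the same locus, was listed at 0 in all controls and at 25.4, 0 and 66.5 FPKM in treated embryos, and whether the 2 genes share fragments was not tested.

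PDIA3 (chromosome 21, 55924230 to 55946435) measured 99.5, 91.4 and 89.3 FPKM in control embryos, and 92.6, 87.2 and 137.7 FPKM after treatment. Only treated embryo 3 lay above the controls, and embryo 2 lay below them. The log2 fold change was 0.15 ± 0.23 (SE), and it was -0.05 without MAT2A-inhibited replicate 3 and -0.01 without the Y-positive libraries, so its sign rests on 1 embryo. The PDIA6 to PDIA3 level ratio was 1.42, 1.23 and 1.16 against 1.49, 2.55 and 1.49, apart only by a narrow margin. In control 1, which had the highest control ratio, the PDIA6 and PDIA3 values were 1.11 and 1.06 times their own upper confidence bounds.

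Of the lectin chaperones, CANX was apart between the groups and CALR overlapped. CANX, the membrane-bound form (chromosome 7, 1505557 to 1538915), measured 93.5, 68.4 and 102.6 FPKM in control embryos, and 123.3, 130.1 and 152.7 FPKM after treatment, without overlap, a log2 fold change of 0.63 ± 0.22 (SE), and 0.50 without the Y-positive libraries. The start and end printed for CANX are those of 3 of 6 libraries, those for HYOU1 and MANF of 5, and those of the other chaperones of all 6. CALR, the soluble form (chromosome 7, 13731958 to 13735788), had levels of 126.7, 203.3 and 105.9 FPKM against 118.5, 170.9 and 186.1, and the highest of all 6 values was control 2. Its log2 fold change of 0.15 ± 0.30 (SE) became 0.42 without control 2, -0.04 without control 3 and -0.24 without the Y-positive libraries. The CALR to CANX ratio was 1.36, 2.97 and 1.03 in controls and 0.961, 1.31 and 1.22 in treated embryos. In control 1 the deposited upper confidence bound was 10754.6 FPKM for CANX and 471.1 FPKM for CALR. Both values of that embryo were thus loosely bounded from above, which limits the CANX separation and this ratio. The HSPA5 to CALR ratio was 0.510, 0.444 and 0.593 against 1.29, 1.66 and 1.26, so in each control the lectin transcript was the more abundant and in each treated embryo the Hsp70 transcript was.

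MANF (chromosome 22, 49946213 to 49950052) measured 389.4, 354.7 and 405.2 FPKM in control embryos, and 463.0, 934.9 and 917.4 FPKM after treatment. Controls agreed to a coefficient of variation of 6.76%, whereas treated embryos varied by 34.7%, with embryo 1 only 1.14 times the highest control and embryos 2 and 3 well above it. The log2 fold change was 0.94 ± 0.28 (SE), and 0.28 without embryos 2 and 3, the Y-positive libraries. MANF was also the gene whose deposited values went furthest beyond their own confidence bounds, by up to 1.34 times the upper bound, in control 2 and in treated embryos 2 and 3. With the lower bound in place of the FPKM its log2 fold change was 0.82. Of the 60 member values 25 lay above their bounds and 0 below, those of genes other than MANF by up to 1.11 times. Over all annotated single-gene rows, including those at 0 FPKM, 8.08% to 10.42% per library lay outside their bounds in either direction.

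**Figure D2:**
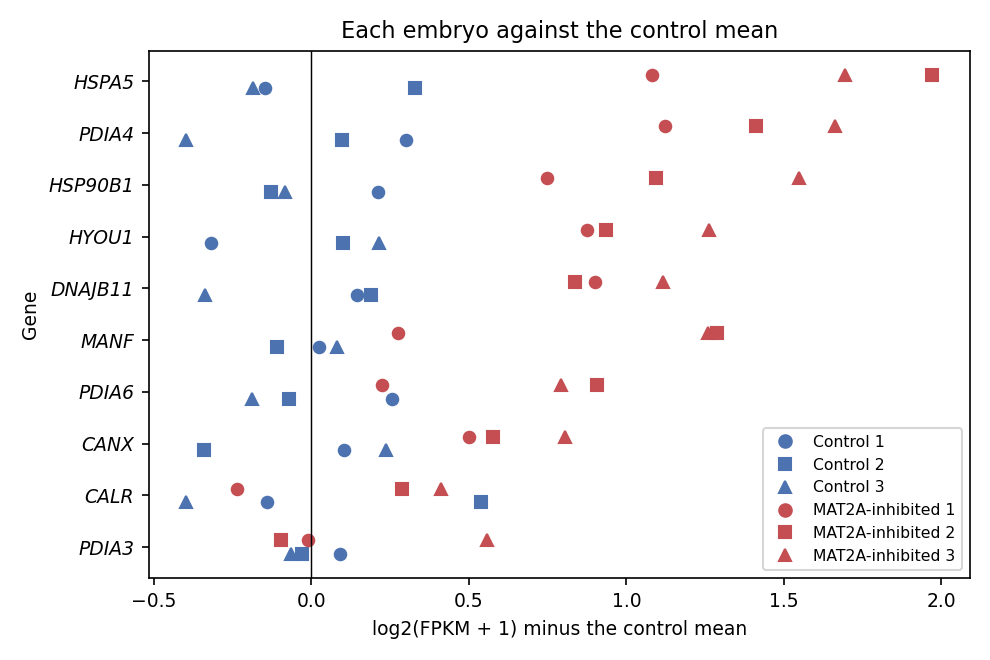
Each embryo's log2(FPKM + 1) minus the mean of the 3 controls (x axis) for each gene, ordered by log2 fold change; colours give the group and marker shapes the replicate number. HSPA5 reaches 1.08 to 1.97 in treated embryos, and CALR and PDIA3 have treated marks on both sides of 0.

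Across the set, 10 of 10 genes were above 0 on the log2 fold scale, as were 54.2% of all tested genes. Their median was 0.95 against 0.05 over all tested genes. In 7 of 10 the 3 treated values lay above the 3 controls, against 8.27% of tested genes. With limma, adjusted over all 7319 genes, 0 of 10 had an adjusted p below 0.05, as against 0.041% of tested genes, and 8 of 10 were higher with an unadjusted p below 0.05, as against 3.7%. Because the genes were chosen with this contrast known, nothing is read from these counts. Without the 2 Y-positive libraries, which leaves 1 treated embryo assumed to vary like the controls, 8 of 10 were above 0, as were 54.5% of the genes then tested, and the median was 0.63. In that setting 7 of 10 lay above all controls, as did 27.4% of the genes.

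The mean log2 difference of the 10 genes from the control mean was 0.55, 0.92 and 1.11 in MAT2A-inhibited morulae 1 to 3 and 0.05, 0.06 and -0.11 in controls 1 to 3. Embryo 1 was the lowest of the treated embryos for 8 of 10 genes, DNAJB11 and PDIA3 being the exceptions, for which embryo 2 was lowest. Embryo 3 was the highest for 7, and embryo 2 for HSPA5, PDIA6 and MANF. The 10 genes together made up 0.112%, 0.112% and 0.0999% of the FPKM of annotated single-gene rows in controls and 0.139%, 0.210% and 0.220% in treated embryos. Within that sum HSPA5 accounted for 6.41% to 8.99% in controls and 11.4% to 14.2% in treated embryos, and MANF for 35.4% to 43.0% against 37.4% to 46.8%, so the HSPA5 share did not overlap between groups and the MANF share did.

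The fold change tended to be larger for genes of lower control level, with several exceptions, HSPA5 and MANF among them. HYOU1 and DNAJB11 also had smaller fold changes than the more abundant HSP90B1, and PDIA3 a smaller one than PDIA6. PDIA4 and HYOU1, both below 4 FPKM in every control, had log2 fold changes of 1.40 and 1.02, and the genes between 80 and 150 FPKM in mean (CANX, PDIA3, PDIA6 and CALR) had 0.15 to 0.64. HSP90B1 and DNAJB11, at 46.7 and 30.5 FPKM in mean, had 1.13 and 0.95. HSPA5, at 72.5 FPKM, had the largest fold change of the set at 1.58, and MANF, the most abundant at 383.1 FPKM, had 0.94. Over the 10 genes Spearman's rho between control mean and log2 fold change was -0.66, and -0.73 with a pseudocount of 0.1. Pearson's r with the log2 control mean was weaker, at -0.46. Over all 7319 tested genes Spearman's rho was -0.19. The points share the same 6 libraries, and the control values enter both axes, so the relation is a description.

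**Figure D3:**
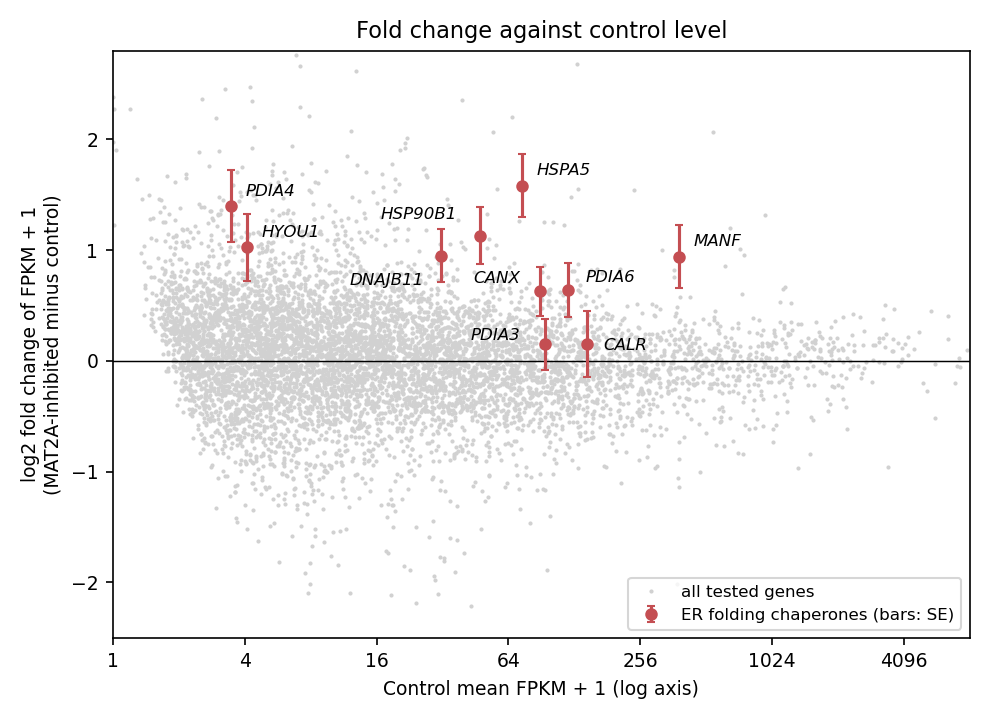
Log2 fold change of FPKM + 1, MAT2A-inhibited minus control (y axis), against control mean FPKM + 1 (log x axis); red points are the 10 chaperones with SE bars, grey points all tested genes, of which 18 lie outside the drawn ranges. HSPA5 at 1.58 and PDIA4 at 1.40 are the highest of the set, and CALR and PDIA3 sit near 0.15.

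Other genes of ER folding differed in both directions. Of 59 listed partners 46 were tested. Of these, 28 were above 0, as were 54.2% of all tested genes, and 18 were below. Their median of 0.19 turned to -0.02 without the Y-positive libraries. In 6 of the 46 the 3 treated values lay above the 3 controls, against 8.27% of tested genes, and in 3 they lay below. None of the partners passed limma over all genes (adjusted p from 0.689 to 0.995). With an unadjusted limma p below 0.05, 6 were higher, against 3.7% of tested genes. By the same measure 2 were lower, PRDX4 and CDNF, against 2.94% of tested genes. Among thiol oxidoreductases (13 tested, median 0.10), P4HB, the archetypal protein disulfide isomerase, was at 70.0, 56.3 and 66.6 FPKM against 93.1, 102.9 and 141.9, without overlap. PDIA5 was at 7.39, 4.47 and 9.30 against 44.5, 10.3 and 21.0 FPKM, a log2 fold change of 1.53. TXNDC5, chosen after its values were seen, was at 1.22, without overlap. PRDX4, the ER peroxiredoxin that uses peroxide to oxidise the isomerases, went the other way, from 381.6, 226.0 and 309.2 to 187.4, 143.4 and 136.5 FPKM. SEP15 and TMX1 had log2 fold changes of -0.004 and -0.41.

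The J-proteins and exchange factors (8 tested, median 0.43) held DNAJC25, at 12.1, 11.8 and 10.4 FPKM against 22.0, 21.5 and 21.2, without overlap. DNAJC10, a disulfide reductase that recruits HSPA5, DNAJC3, its co-chaperone, and DNAJB9 had log2 fold changes of 0.62, 0.43 and 0.42, and SDF2 was at -0.58. In the lectin cycle (6 tested, median 0.29), LMAN2, PRKCSH, MLEC, LMAN1 and CLGN were at 0.48, 0.79, 0.32, 0.26 and -0.29. Prolyl isomerases (7 tested, median -0.10) were mixed, with FKBP2 and PPIB at 0.51 and 0.49 and FKBP14, FKBP11 and PPIC at -0.47, -0.10 and -0.31. Among the other lumenal chaperones and retrieval receptors (12 tested, median 0.10), CDNF, the paralogue of MANF, was at 2.47, 2.76 and 2.01 FPKM against 0.108, 0.127 and 1.51, opposite in sign to MANF. SERPINH1, the collagen chaperone, CRELD2, KDELR2, which returns lumenal proteins from the Golgi, and RCN2 had log2 fold changes of 0.81, 0.71, 0.11 and 0.11.

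Chaperones of the cytosol and mitochondria gave a median log2 fold change of 0.12 over 16 tested genes, which turned to -0.05 without control 2. Of the 16 genes 11 were above 0, as were 54.2% of all tested genes. In 1 of the 16, HSP90AA1, the 3 treated values lay above the 3 controls, against 8.27% of tested genes. None of the 16 passed limma (adjusted p from 0.746 to 0.994) and 0 had an unadjusted p below 0.05. HSPA8, the constitutive cytosolic Hsp70, was at 1444, 2354 and 1615 FPKM against 1514, 1678 and 1727, and mitochondrial HSPA9 at 227.2, 361.4 and 320.9 against 201.9, 230.0 and 244.0. HSPA5 amounted to 4.47%, 3.83% and 3.89% of the HSPA8 level in controls and 10.1%, 16.9% and 13.5% in treated embryos. Cytosolic HSP90AA1 was at 652.3, 442.4 and 583.8 against 769.8, 677.9 and 818.8 FPKM, and HSP90AB1 had a log2 fold change of 0.15. HSP90B1 was 8.27%, 9.57% and 7.49% of HSP90AA1 in controls and 10.2%, 14.8% and 16.8% in treated embryos. Both of these shares were higher in each treated embryo than in any control. The HSP90B1 to HSP90AB1 ratio overlapped between groups, at 0.297, 0.514 and 0.285 against 0.454, 0.929 and 0.819.

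The remaining counterparts had log2 fold changes of 0.13 (HSPA1A), -0.24 (HSPA2), 0.32 (HSPA4), -0.29 (HSPH1), 0.21 (DNAJA1), 0.01 (DNAJA2), 0.48 (DNAJB1) and 0.11 (DNAJB6) in the cytosol. In mitochondria they were 0.89 (TRAP1), 0.08 (HSPD1), -0.06 (HSPE1) and 0.20 (DNAJA3). TRAP1 was at 6.28 FPKM in control 2 and 27.5 or more in the other 5 libraries. Several of these genes, such as HSPA8 and HSPE1, have processed copies that can share reads. The difference between the ER set and these genes was not tested, since it rests on the contrast that chose the set.

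**Figure D4:**
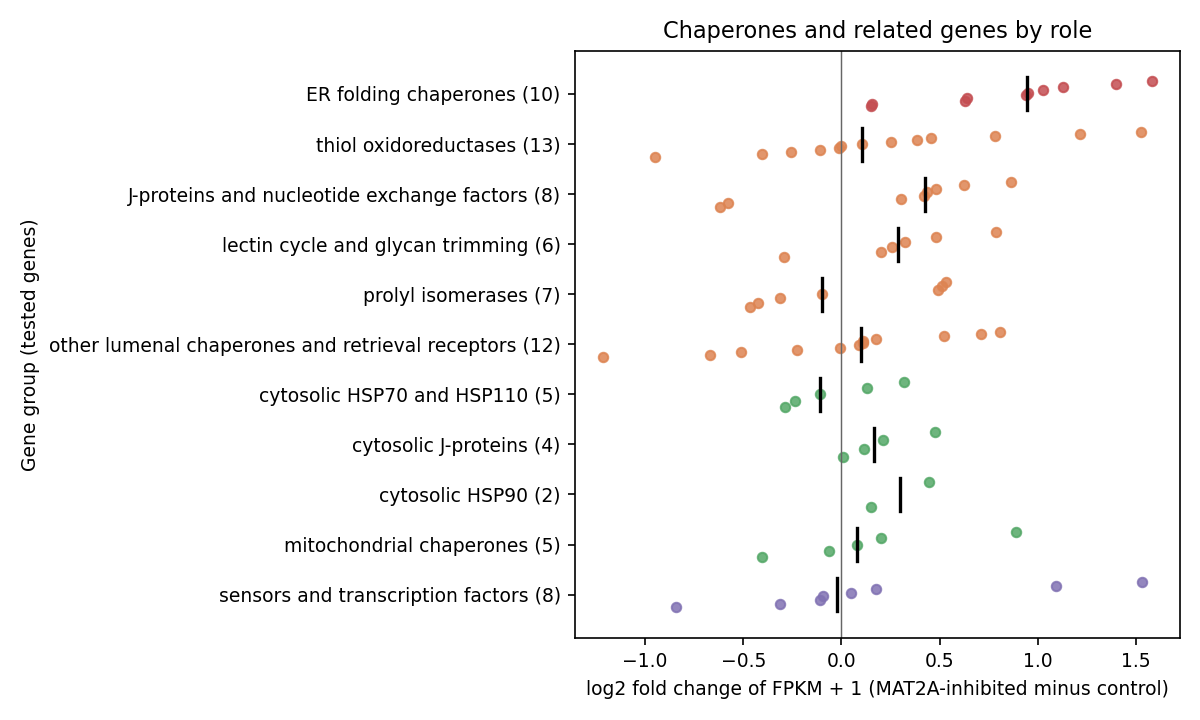
Log2 fold change of FPKM + 1, MAT2A-inhibited minus control (x axis), of each tested gene in the ER chaperone set and in the lists of related genes by role (number tested in parentheses); black bars are medians. The ER chaperones have a median of 0.95, and the medians of the other groups lie between -0.11 and 0.43.

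Of 13 sensors and transcription factors of the response, 8 were tested, with a median log2 fold change of -0.02. XBP1, which drives ER chaperone genes after splicing by ERN1, was at 19.7, 13.9 and 21.6 FPKM against 35.1, 70.9 and 63.7. Whether XBP1 had a part in the chaperone values was not tested. EIF2AK3 was at 1.72, 0.435 and 3.24 against 3.38, 3.97 and 6.32 FPKM, while DDIT3 (CHOP), induced through ATF4, ATF4 itself and NFYB had log2 fold changes of -0.84, 0.18 and -0.11. The limma adjusted p of the 8 genes ran from 0.573 to 0.965. With an unadjusted limma p below 0.05, 2 of them, XBP1 and EIF2AK3, were higher, against 3.7% of all tested genes. ATF6 and ERN1, though listed, had no single-gene row under the symbols searched, so their levels are not known here.

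Markers of other cells differed in direction by list. Summed over 10 cumulus genes the level was 61.9 to 129.4 FPKM in controls and 43.7 to 83.8 in treated embryos, nearly all SERPINE2, with PTX3 at 0 throughout and DCN at 10 FPKM or more only in control 2. The 5 sperm genes summed to 2.53 to 4.79 against 5.13 to 11.5 FPKM, with AKAP4 and ODF1 at 0 throughout and TNP2 highest at 6.43. The 3 blood genes summed to 63.1 to 132.4 against 81.9 to 109.8 FPKM, nearly all HBA. The sperm sums were thus higher in each treated embryo than in any control, but 0 of the 3 tested sperm genes were so singly. The 5 early embryo genes were lower in sum in each treated embryo, at 864.2 to 1086 against 1229 to 1351 FPKM, most of it DPPA3. SOX2, in the same list, was higher in each treated embryo, at 41.5, 27.6 and 32.1 against 50.8, 50.3 and 45.2 FPKM, and TFAP2C had a log2 fold change of 0.02. DPPA3 and NANOG were each lower in every treated embryo than in any control, with log2 fold changes of -0.62 and -1.55. The part of these lists in the chaperone values was not tested.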

How the data were processed

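The submitters' processing notes name Cufflinks 2.2.1, TopHat2 2.0.14 and the bosTau8 build. The authors deposited 1 gene table per library, with FPKM and its confidence bounds per the file headers. The annotation, strand setting and any scaling between libraries is not given in the sources used here. Rows of 1 symbol were summed. Of 13295 symbols in all 6 libraries 38 in merged loci and 72 with a status other than OK were left out. Each chaperone had 1 row per library, with status OK. Depth was recovered from lower bounds of unannotated loci of 100 to 300 bases, where 99.5% to 99.7% of values came out as whole fragments (tolerance 0.05). Counts per gene were not recovered, so each SD is the spread between embryos. The SE of a fold change comes from the limma fit described below. That fit moderates the spread of each gene by that of genes of like level, so the SE can differ from the gene's own spread.

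The 7319 genes that reached 1 FPKM in 3 or more libraries entered a two-sided limma test (version 3.58.1, R 4.3.3). It used log2(FPKM + 1), a trended prior variance and Benjamini-Hochberg adjustment at 0.05. The script was tested on simulated data. The members and gene lists were chosen with earlier results of these data known. The text names all members, all tested cytosolic and mitochondrial counterparts, and, in each role of the partners and in the sensor list, the 3 genes of smallest p and the 2 others of highest level. It also names markers at 10 FPKM or more, or the highest of a list. CDX2, PTX3, AKAP4, ODF1, TXNDC5 and ATP6V1C2 were named after their values were seen. Positions are 1-based. No sequences were used here. Alternatives were other scalings (median-of-ratios, quantile, TPM), a pseudocount of 0.1, no filter, no trend, the highest row per symbol, the replicate number as a block, each library left out, and the libraries with Y-linked transcripts left out. Added after seeing the data was the lower bound in place of the FPKM.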

Additional observations from a re-analysis of the deposited data

How the results depend on the processing

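Over the 10 genes and 15 alternatives, 142 of 150 log2 fold changes kept their sign and stayed within 1 SD of embryos, 4 moved further and 4 changed sign. For 30 of the 150 the setting (no filter, the replicate block, the highest row per symbol) could not change the value. The sign changed for CALR without control 3 (-0.044) and without the Y-positive libraries (-0.236), and for PDIA3 without MAT2A-inhibited replicate 3 (-0.053) and without those libraries (-0.010). With 1 library left out CALR ran from -0.044 to 0.423 and PDIA3 from -0.053 to 0.273. The 4 that moved, HSPA5, HSP90B1, PDIA6 and MANF, did so without those libraries, which also gave medians of 0.625 for the chaperones and -0.017 for the partners. The median of the chaperones ran from 0.824 to 1.037 with 1 library left out and was 0.887, 0.947 and 0.927 with median-of-ratios, quantile and TPM scaling. The median of the cytosolic and mitochondrial counterparts ran from -0.051 (without control 2) to 0.265. Of all genes 3 passed limma; 1 passed with no filter, 1 with the replicate block, 0 without the Y-positive libraries, and 0 to 8 with 1 library left out (0 without any one treated library, 8 without control 3). The cause of these changes was not tested. The labels do not say that replicate numbers pair the embryos, and whether they do is unsettled: deviations from group means correlated at 0.046, 0.103 and 0.191 for numbers 1 to 3, and 5 of 6 libraries correlated best with their own number. The precision given here rests on the spread between 3 embryos per group, and the part of depth in that spread was not tested.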
